A study of Homo sapiens with 46 samples.

Results

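The 8 genes described here encode the subunits of CCT (also called TRiC), the chaperonin of the cytosol: TCP1, CCT2, CCT3, CCT4, CCT5, CCT6A, CCT7 and CCT8. They were chosen by name, as the genes that carry these symbols in the count tables of the 4 cell types, and all 8 were found in each table. They are 8 of 15125 genes in the hPSC table, of 17728 in the ectoderm table, of 13656 in the endoderm table and of 15018 in the mesoderm table. Their counts are sums over 11, 13, 11 and 11 assembled isoforms in the same order.

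CCT is a barrel of stacked rings, and each ring holds 1 copy of each subunit in a fixed order around an ATP-driven folding chamber. Newly made actin and tubulin depend on it, as do cell-cycle activators such as CDC20 and several proteins with WD40 repeats, and many of these clients are handed over by prefoldin. Each subunit is encoded by its own gene on its own locus, so a ring needs the messages of all 8 genes.

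The series profiles RNA in parts of the cell. The source was H1, an established line of human pluripotent stem cells (hPSCs), along with cells driven from it in culture toward endoderm (WNT3A and activin A), mesoderm (BMP4, VEGF and bFGF, with activin A on the first day) and ectoderm (the inhibitors A83-01, PNU-74654 and dorsomorphin). From each of the 4 cell types came cytoplasm, lifted off the nuclei after mild NP-40 lysis, whole nucleus, and nuclei split further into nucleoplasm, the soluble part, and chromatin. The fractionation buffers held α-amanitin, an inhibitor of RNA polymerase II. This gave 16 groups of 1 cell type and 1 fraction, 15 of them with 3 libraries and mesoderm nucleoplasm with 1, or 46 libraries in all. All cells share the 1 line, and the labels do not say whether repeats came from separate cultures, so the p-values measure the spread between these libraries, which may be technical. The design text of the series names actinomycin D, but no sample label does, and the labels were followed.

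Library totals ran from 4990408 to 21298678 counts, and repeats differed by more than counting error, since chi-squared divided by its degrees of freedom was 4.06 or more in all 45 pairs of repeats and 0 pairs were identical. In the cytoplasm, the 7 endoderm markers summed to 452 to 611 counts per 1000000 of the library total (CPM) in endoderm and were not listed in hPSCs or ectoderm, and the 6 ectoderm markers summed to 484 to 538 CPM in ectoderm, where PAX6, OTX2, LHX2 and ZIC1 were listed and SOX1 and HES5 were not. For mesoderm 4 of 9 marker symbols were listed, led by HAND1, and they summed to 134 to 141 CPM in mesoderm cytoplasm. In hPSCs 4 of the 9 were listed too, at 32.7 to 38.3 CPM in the cytoplasm. In the nucleus hPSCs were instead above mesoderm, at 396 to 469 against 40.4 to 48.5 CPM. The order was the same in nucleoplasm (264 to 274 against 49.2 CPM in 1 library) and on chromatin (198 to 225 against at most 65.8 CPM). These nuclear sums thus do not mark the mesoderm cells, and the cause was not tested. In endoderm cytoplasm 7 of the 9 symbols were listed, with GATA4 also on the endoderm list, and these summed to 245 to 308 CPM. The pluripotency markers, of which 6 were listed in hPSCs, 5 in endoderm, 5 in ectoderm and 3 in mesoderm, summed to 6006 to 6449 CPM in hPSC cytoplasm, 4390 to 4910 CPM in endoderm, 2489 to 2605 CPM in mesoderm and 1994 to 2513 CPM in ectoderm. The fraction controls were mixed. The summed level of RPLP0, GAPDH, ACTB and EEF1A1 was 34990 to 45417 CPM in ectoderm nucleus and 36620 to 38468 CPM in ectoderm cytoplasm, ranges that overlap, whereas in the other 3 cell types the cytoplasm lay above the nucleus. Of the nuclear RNAs MALAT1, NEAT1 and KCNQ1OT1, 2 were listed in hPSCs and endoderm and 3 in ectoderm and mesoderm. Their summed level was higher in the cytoplasm than in the nucleus in hPSCs (211 to 256 against 75.2 to 97.4 CPM) and ectoderm (1154 to 2229 against 37.0 to 318 CPM). In endoderm these ranges overlapped (93.9 to 171 against 29.7 to 278 CPM). In mesoderm the cytoplasm was lower (198 to 227 against 322 to 630 CPM). Mitochondrially encoded RNA took 13.1% to 15.3% of counts in hPSC nucleus and 0.399% to 0.615% in hPSC cytoplasm, and mesoderm had the opposite order (1.11% to 1.36% in the nucleus and 5.84% to 7.46% in the cytoplasm).

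The per-length levels come first, since only these compare one gene with another. The authors' TPM corrects for transcript length, and each cell type's table was scaled on its own assembly. In hPSC cytoplasm the 8 genes lay within a narrow band, from CCT6A at 186.5 ± 36.3 TPM to CCT7 at 411.6 ± 57.3 TPM (SD, n = 3). CCT3 stood at 319.2 ± 62.7 TPM and CCT8 at 294.7 ± 43.9 TPM, and CCT4, CCT2, CCT5 and TCP1 followed between 202.2 and 236.4 TPM. Every pair of neighbours in that order overlapped within 1 SD.

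CCT7, which encodes the eta subunit, was also the highest of the 8 in endoderm cytoplasm (410.2 ± 43.8 TPM) and mesoderm cytoplasm (258.1 ± 18.9 TPM). In ectoderm cytoplasm CCT8, the theta subunit, came first at 285.8 ± 47.5 TPM, followed by CCT4 at 233.4 ± 38.5 TPM and CCT7 at 232.4 ± 27.9 TPM, which overlapped with it within 1 SD. CCT5, the epsilon subunit, came last in the cytoplasm of the 3 differentiated cell types, at 101.8 ± 13.8 TPM in ectoderm, 180.9 ± 9.41 TPM in endoderm and 113.8 ± 6.71 TPM in mesoderm. Its neighbour TCP1 overlapped with it within 1 SD in ectoderm (123.7 ± 19.9 TPM) and endoderm (186.8 ± 7.62 TPM), and in mesoderm (125.5 ± 7.43 TPM).

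The spread among the 8 messages was widest in endoderm nucleus. There CCT7 stood at 264.1 ± 9.59 TPM and CCT6A at 46.8 ± 21.6 TPM, and the highest of the 8 exceeded the lowest by 4.18-fold to 12.3-fold in the 3 libraries. In hPSC nucleoplasm the same ratio averaged 1.78, and in the cytoplasm it averaged 2.23 in hPSCs, 2.80 in ectoderm, 2.32 in endoderm and 2.27 in mesoderm.

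**Figure D1:**
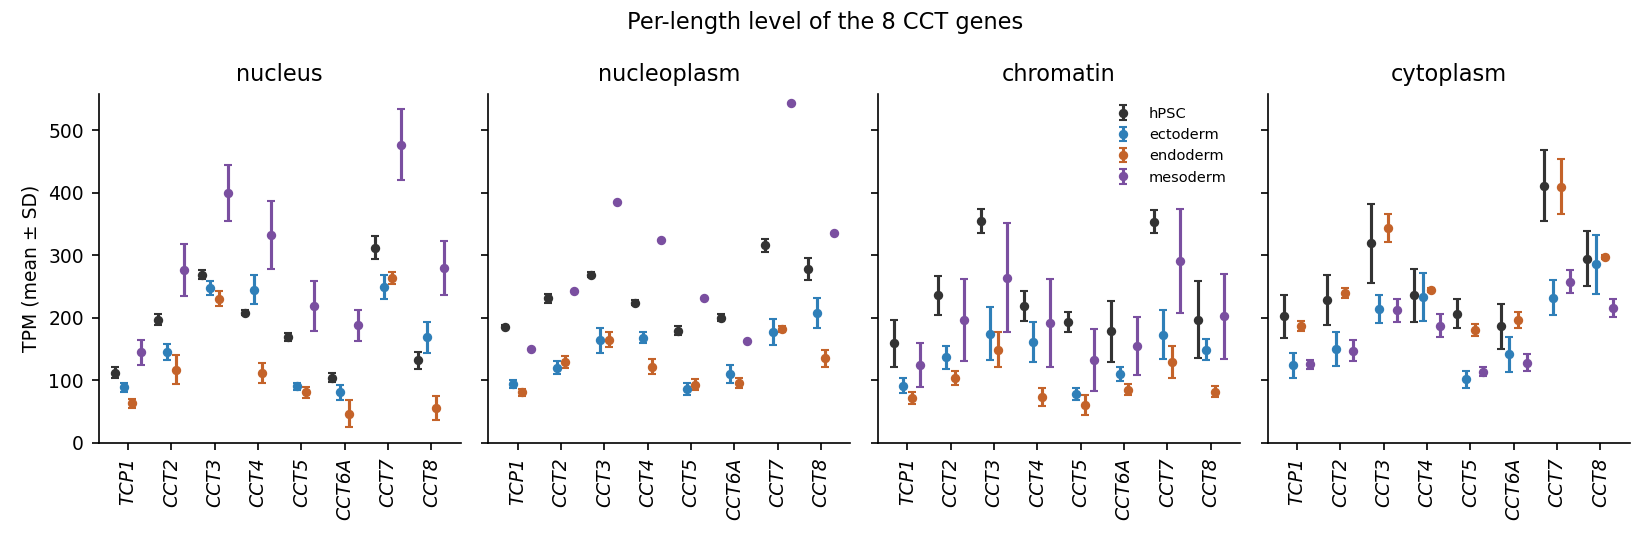
Per-length level (TPM, linear axis) of the 8 genes in each fraction, as the mean with SD of 3 libraries (mesoderm nucleoplasm is 1 library, with no bar), coloured by cell type. In the cytoplasm panel hPSC and endoderm lie close together for CCT7 (411.6 and 410.2 TPM), with ectoderm (232.4 TPM) and mesoderm (258.1 TPM) below them.

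Summed over the 8 genes, the level in hPSC cytoplasm was 4056 ± 150 CPM, against 2114 ± 164 CPM in hPSC nucleus. Endoderm had the larger difference, with 3793 ± 105 CPM in the cytoplasm and 1294 ± 170 CPM in the nucleus. The sums were 2413 ± 147 CPM and 2115 ± 153 CPM in ectoderm, and 2397 ± 72.9 CPM and 1943 ± 275 CPM in mesoderm, in the same order. Chromatin held the lowest sum in ectoderm (1009 ± 81.0 CPM) and endoderm (888 ± 52.5 CPM). Mesoderm chromatin was uneven between its repeats, from 894 to 1874 CPM. In bulk RNA, fewer cells of a kind and less RNA per cell cannot be told apart.

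**Figure D2:**
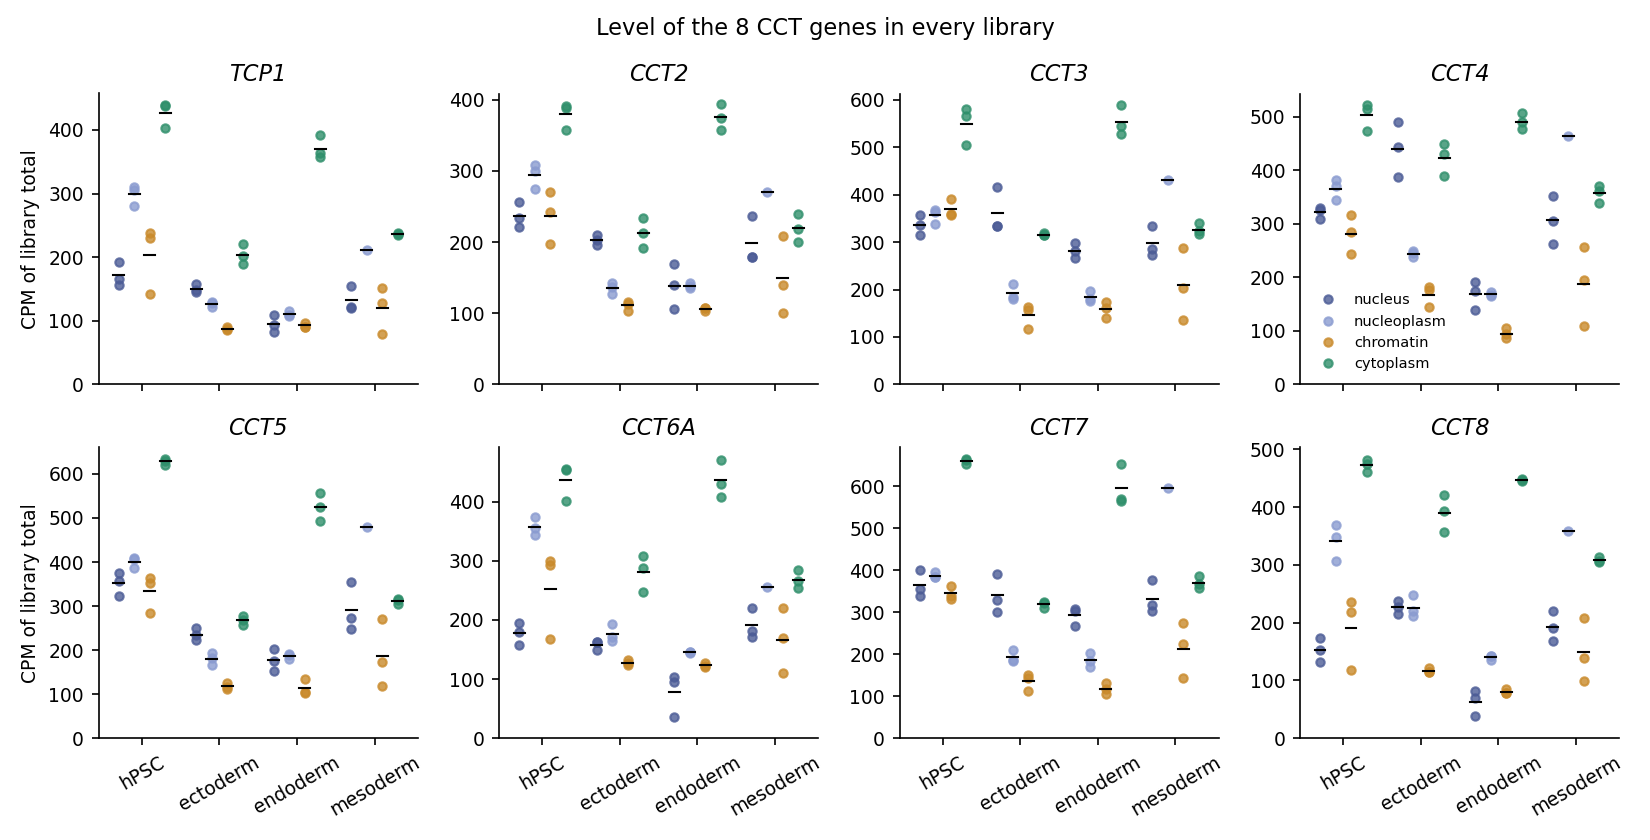
Level of each of the 8 genes in every library (CPM, linear axis), one panel per gene, with points coloured by fraction and set out by cell type. In hPSCs and endoderm the 3 cytoplasm points stand above the nucleus points in each panel, and in ectoderm and mesoderm cytoplasm and nucleus lie closer together.

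Cytoplasm was compared with nucleus in hPSCs first. All 8 genes were higher in the cytoplasm, from 1.49-fold for CCT4 to 2.95-fold for CCT8, and 65.5% of the 14007 genes tested were called in this comparison, 35.2% as higher and 30.3% as lower. CCT8 stood at 461.1, 481.3 and 474.4 CPM in the cytoplasm and at 174.2, 131.7 and 152 CPM in the nucleus. The groups did not overlap, and the log2 difference was 1.56 (SE 0.20, edgeR quasi-likelihood test with Benjamini-Hochberg adjustment, adjusted p = 1.6e-05).

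TCP1, the alpha subunit and the founding member of the family, was at 402.8, 439.2 and 436.8 CPM in hPSC cytoplasm and at 193, 156.1 and 166.1 CPM in the nucleus. CCT6A, the zeta subunit, was at 401, 454.1 and 455.2 CPM and at 194.7, 158.4 and 180.4 CPM. Both rose by similar amounts, 1.24 for TCP1 and 1.23 for CCT6A on the log2 scale. The other 5 genes had differences of 0.57 to 0.79, and CCT7, at 653.8 to 665 CPM against 338.6 to 401.6 CPM, was the highest among them. The median of the 8 was 0.78 where the median of all genes tested was 0.10, and on the authors' TPM these medians were 0.33 and -0.19 with 4 of the 8 genes called, all as higher.

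In endoderm the spread among the 8 genes was larger. CCT8 was at 444.5, 449 and 446.2 CPM in the cytoplasm and at 37.8, 82.45 and 69.82 CPM in the nucleus, a log2 difference of 2.15 (SE 0.15, edgeR adjusted p = 1.3e-08) and the largest among the 8 genes in these cytoplasm against nucleus comparisons. CCT6A was at 429.6, 470.6 and 408.1 CPM against 36.26, 103.3 and 94.97 CPM, a difference of 1.84 (SE 0.20). The first nucleus library was the lowest for both genes, and without it the differences were 2.01 and 1.59. TCP1 (1.26), CCT5 (0.86), CCT4 (0.84) and CCT2 (0.75) were called as higher as well.

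CCT3, the gamma subunit, and CCT7 did not pass the test in endoderm. CCT3 was at 544, 527.3 and 589.2 CPM in the cytoplasm and 266.4, 297.9 and 280.4 CPM in the nucleus, groups that do not overlap, yet its fitted difference was 0.25 (SE 0.15, edgeR adjusted p = 0.15) after TMM scaling, which takes out a shift shared by most genes. For CCT7 the difference was 0.28 (SE 0.18, edgeR adjusted p = 0.17). Both were called when the first endoderm nucleus library was left out, at 0.39 and 0.50. In all, 6 of 8 genes were called as higher and 0 as lower, where 69.9% of 12687 genes were called, 34.3% as higher and 35.5% as lower, and scaling by library totals or testing TPM called all 8 as higher. The split of all calls depends on the scaling here: 49.1% of them were higher in the main test, 71.5% with library totals and 62.9% on TPM.

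Ectoderm gave calls in both directions. CCT6A was higher in the cytoplasm (308.3, 247.8 and 287.7 against 162.8, 149.3 and 162.8 CPM), by 0.49 on the log2 scale (SE 0.09, edgeR adjusted p = 0.00082). CCT8 was higher too, at 420.2, 356.5 and 394 against 236.9, 215.7 and 227.1 CPM, by 0.45 (SE 0.09, edgeR adjusted p = 0.0013). These 2 calls held with library totals, on TPM, on the combined assembly and without each library in turn.

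TCP1 (0.09, SE 0.11, edgeR adjusted p = 0.5) was not called, nor was CCT5 (-0.16, SE 0.12, edgeR adjusted p = 0.27), which was at 0.19 with library totals and 0.16 on TPM.

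The 4 lower calls in ectoderm were less firm. They were CCT3 (-0.55), CCT7 (-0.45), CCT4 (-0.41) and CCT2 (-0.28), with edgeR adjusted p of 0.011, 0.024, 0.019 and 0.039, and 0 of the 4 was called as lower with library totals or on TPM, where CCT2 was at 0.07 and 0.04. CCT3 was at 313.8, 313.9 and 318.1 CPM in the cytoplasm and 333.2, 416.8 and 333.1 CPM in the nucleus. For CCT4 the values of 448.6, 388.6 and 430.9 CPM overlapped with 443.1, 490 and 387.2 CPM. Without the second ectoderm nucleus library, the one with the highest levels of CCT3, CCT4 and CCT7, none of the 4 was called (edgeR adjusted p of 0.075 to 0.45). All 4 calls were also lost without ectoderm cytoplasm library 1 (edgeR adjusted p of 0.065 to 0.11) and without cytoplasm library 3 (0.056 to 0.20). Of all 15642 genes 54.2% were called, 27.5% as higher and 26.7% as lower, and 50.7% of the calls were higher in the main test against 76.1% with library totals and 75.6% on TPM. The median of all genes moved from 0.00 to 0.34 with library totals, and the median of the 8 from -0.22 to 0.13, so the gap between them was -0.22 and -0.21. That the control RNAs of the cytoplasm were as high in these nucleus libraries as in the cytoplasm moves with these calls, and its part in them was not tested.

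Mesoderm gave 3 higher calls, TCP1 (0.94, SE 0.21), CCT8 (0.78, SE 0.22) and CCT6A (0.59, SE 0.21), with edgeR adjusted p of 0.0022, 0.0099 and 0.028, and on TPM the same genes were at -0.20, -0.36 and -0.54 and not called. TCP1 was at 238.2, 234.1 and 236.2 CPM in the cytoplasm against 119.8, 155.3 and 122.4 CPM in the nucleus, with no overlap. The other 5 genes had differences of 0.20 to 0.32 and were not called by edgeR, and on TPM they were called as lower, from -0.81 for CCT4 to -0.92 for CCT5. The background was 63.2% of 14412 genes called, 31.8% as higher and 31.3% as lower, and the share of calls that were higher was 50.4% in the main test and 10.7% on TPM, whose median over all genes was -0.83. CCT6A lost its call without any 1 of 5 of the 6 libraries, at 0.53 to 0.60. The direction of the 8 genes in mesoderm depended on the unit.

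**Figure D3:**
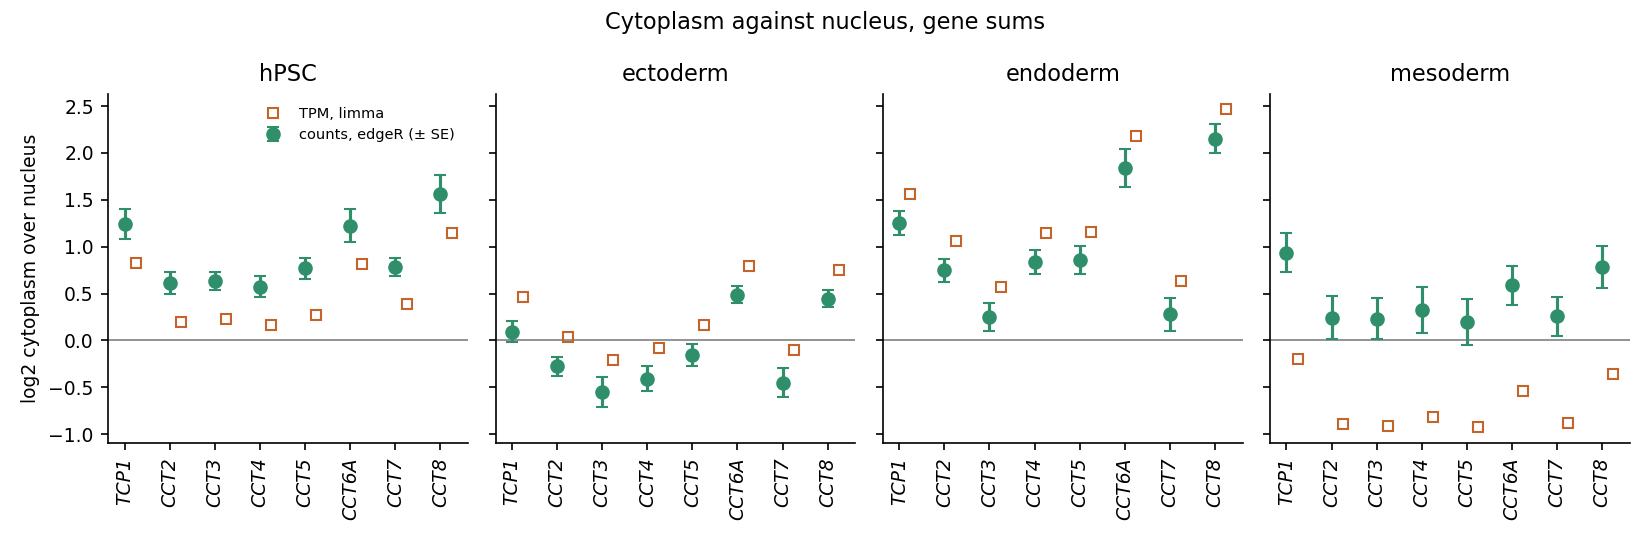
Log2 difference of cytoplasm over nucleus for each gene and cell type: points with bars are the edgeR estimate with its SE on counts, and squares are the limma estimate on log2(TPM + 1). CCT8, CCT6A and TCP1 hold the highest point estimates in each cell type, while in mesoderm the TPM squares fall below 0 for all 8 genes.

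Comparing the 8 genes with each other within a library removes the scaling. For each library the mean log2 CPM of the 8 was subtracted from each gene, so the library total cancels, and since these values sum to 0, a rise of some genes requires a fall of others. CCT8 gained relative to the rest in the cytoplasm over the nucleus by 0.64 in hPSCs, 0.54 in ectoderm, 1.13 in endoderm and 0.33 in mesoderm. CCT6A gained 0.30, 0.58, 0.86 and 0.14, and TCP1 gained 0.32, 0.19, 0.22 and 0.49, in the same order of cell types. In words, these 3 genes were higher against their partners in all 4 cytoplasms than in the matching nuclei. The gain was not particular to the cytoplasm. From nucleus to nucleoplasm CCT8, CCT6A and TCP1 gained 0.69, 0.53 and 0.32 in hPSCs and 0.45, 0.60 and 0.20 in ectoderm, without overlap. In endoderm CCT8 stood at -0.15 in nucleoplasm and -1.20 in nucleus, CCT6A at -0.09 and -0.96, and TCP1 at -0.48 and -0.55. In the 1 mesoderm nucleoplasm library CCT6A went the other way (-0.51 against -0.28), unlike CCT8 and TCP1. On chromatin, too, the means of the 3 genes were above those in the nucleus in all 4 cell types. CCT6A stood at -0.12 against -0.49 in hPSCs, 0.04 against -0.64 in ectoderm, 0.18 against -0.96 in endoderm and -0.01 against -0.28 in mesoderm. For CCT8 the libraries overlapped in hPSCs (-0.54 against -0.72) and ectoderm (-0.09 against -0.12). Apart from CCT6A in mesoderm nucleoplasm, the nucleus thus held their lowest means.

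From nucleus to cytoplasm the remaining 5 genes lost ground in each cell type. For CCT3 the change was -0.29 in hPSCs, -0.43 in ectoderm, -0.79 in endoderm and -0.22 in mesoderm. For CCT7 it was -0.14, -0.33, -0.74 and -0.19, for CCT2 -0.32, -0.18, -0.30 and -0.20, and for CCT4 -0.35, -0.30, -0.20 and -0.12. For CCT5 it was -0.16, -0.06, -0.18 and -0.24, the lowest of the 8 in mesoderm.

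The cytoplasm and nucleus libraries did not overlap in any of the 32 pairs of gene and cell type, 12 of them higher and 20 lower. Among all genes, set against the same mean, 75.1% did not overlap in hPSCs, 54.4% in ectoderm, 73.8% in endoderm and 75.3% in mesoderm. As higher these were 8.9%, 29.6%, 12.4% and 25.2%, and as lower 66.2%, 24.8%, 61.4% and 50.1%, so absence of overlap is common and it is the sign shared by the cell types that is described here. On TPM 31 of 32 pairs did not overlap, and 12 were again higher. Leaving out each library in turn kept the gain of CCT6A in endoderm between 0.54 and 1.03, the widest range among the 3 genes.

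**Figure D4:**
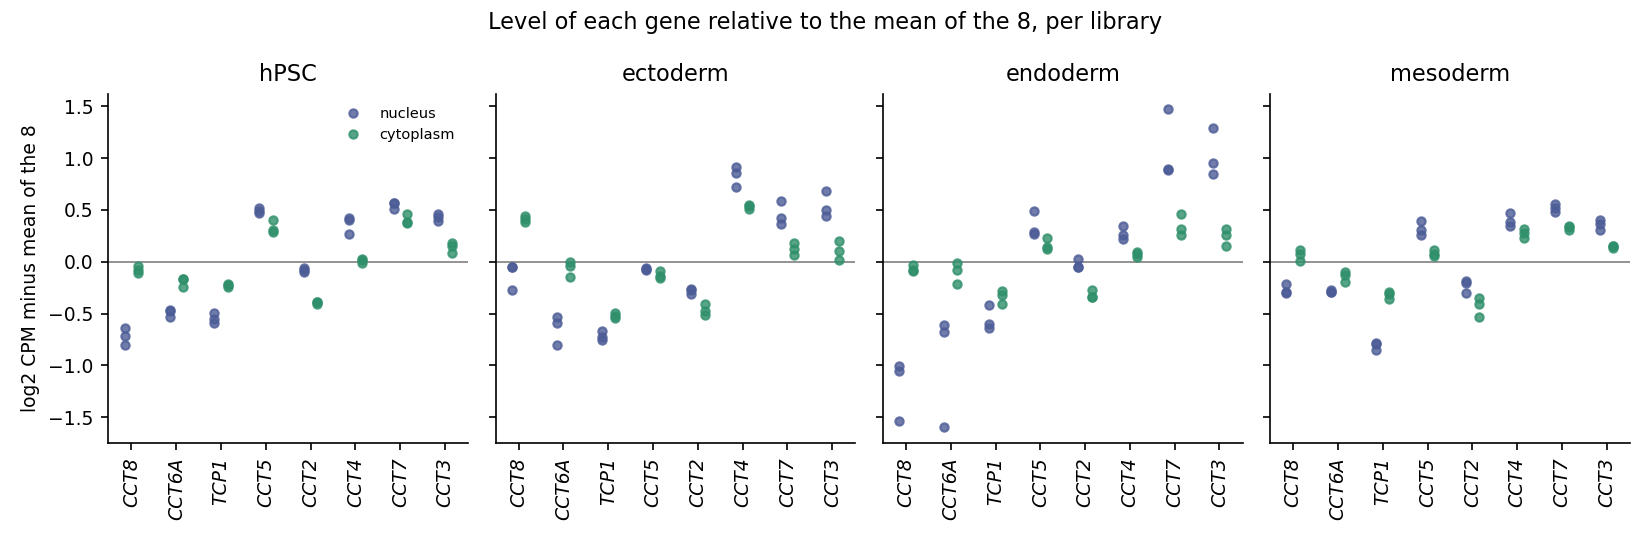
Level of each gene against the mean of the 8 (log2 CPM minus that mean) in every nucleus and cytoplasm library, one panel per cell type; the line at 0 is the mean of the 8. CCT8, CCT6A and TCP1 stand higher in cytoplasm than in nucleus in all 4 panels, and CCT3 and CCT7 stand lower.

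Sequences before the start are shown for 2 genes that gained in the cytoplasm over the nucleus, TCP1 and CCT8. That of 1 gene that lost, CCT3, is shown beside them, to let a reader compare genes that moved apart. They are the 250 bases before the RefSeq start in GRCh38.p14, for TCP1 chr6:159789603-159789852, for CCT8 chr21:29073649-29073898 and for CCT3 chr1:156338293-156338542, each on the minus strand and written 5′ to 3′. For each of the 3 genes this start lies inside the span that GENCODE v29 gives the gene. Capitals mark matches on either strand to the letters CCAAT, to GGGCGG, the core of a GC box, or to GAANNTTC, which is like part of a heat-shock element.
TCP1: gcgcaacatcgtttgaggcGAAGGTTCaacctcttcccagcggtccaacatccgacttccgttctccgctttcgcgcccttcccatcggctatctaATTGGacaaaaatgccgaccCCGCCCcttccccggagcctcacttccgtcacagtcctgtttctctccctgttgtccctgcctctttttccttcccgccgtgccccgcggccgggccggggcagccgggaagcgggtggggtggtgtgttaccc
CCT8: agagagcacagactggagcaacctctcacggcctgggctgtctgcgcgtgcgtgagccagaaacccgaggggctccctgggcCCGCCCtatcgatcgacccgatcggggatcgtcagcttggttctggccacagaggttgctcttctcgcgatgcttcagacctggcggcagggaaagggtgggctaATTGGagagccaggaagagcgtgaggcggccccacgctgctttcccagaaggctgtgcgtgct
CCT3: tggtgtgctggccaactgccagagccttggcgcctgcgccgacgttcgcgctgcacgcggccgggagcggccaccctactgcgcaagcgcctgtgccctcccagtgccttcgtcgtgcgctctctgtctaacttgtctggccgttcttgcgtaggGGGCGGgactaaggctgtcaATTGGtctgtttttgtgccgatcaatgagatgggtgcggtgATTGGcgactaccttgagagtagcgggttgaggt

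All 3 windows hold CCAAT and GGGCGG, so these letters do not separate the 3 genes shown. Among all genes that lost, CCT2 and CCT3 had both, and CCT4, CCT5 and CCT7 had neither. The windows of CCT5 (chr5:10250287-10250536) and CCT7 (chr2:73234058-73234307) lie wholly inside the spans that GENCODE v29 gives these genes. So do the CCT3 window and the CCT2 window at chr12:69585639-69585888. For CCT5 and CCT7, absence of these letters therefore does not describe the sequence before the GENCODE start. Of the 8 genes, 7 matched an entry in the RefSeq promoter table, with 9 windows between them, and CCT6A did not. CCAAT was found before TCP1, CCT2, CCT3 and CCT8, and in 32% of all 35116 windows. GGGCGG was found before the same 4 genes and in 42.6% of windows. GAANNTTC was found before TCP1 and CCT2 and in 5.78%, CCGGAAG before CCT2 alone and in 8.52%, and CACGTG before 0 of the 7 and in 6.34%. Overlaps between motifs were allowed, and a match describes letters only.

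The change in cytoplasm against nucleus was then compared between cell types, with the interaction term of a model over the 10687 genes tested of those in all 4 tables. In ectoderm the term was negative and called for all 8 genes, that is, cytoplasm over nucleus was lower than in hPSCs, with 52.3% of all genes called, 26.3% as higher and 26% as lower. The largest terms were those of CCT7 (-1.11, SE 0.24), CCT3 (-1.07, SE 0.22) and TCP1 (-1.03, SE 0.19), with edgeR adjusted p of 0.00069, 0.00047 and 0.00014. The median of the 8 was -0.93 and of all genes 0.05. With library totals 7 of the 8 were called and on TPM 1 was, with a median of -0.31 against 0.48 for all genes, so the gap between the medians was -0.97 in the main test, -0.95 with library totals and -0.79 on TPM. The high level of cytoplasmic control RNAs in the ectoderm nucleus libraries enters this comparison as well, and its part was not tested.

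In endoderm 2 of 8 genes differed from hPSCs in this term, CCT6A (0.66, SE 0.23) and CCT8 (0.63, SE 0.18), with edgeR adjusted p of 0.028 and 0.01, against 38.5% of all genes called, 20% as higher and 18.5% as lower. CCT6A lost its call without any 1 of 4 of the 12 libraries, at 0.48 to 0.86 over all 12. With library totals and on TPM 6 of the 8 were called, all as higher, and the median of all genes went from -0.06 to 0.54 and 0.52. CCT3 (-0.35) and CCT7 (-0.47), not called in the main test, changed sign under both. In mesoderm CCT8 alone was called, as lower (-0.70, SE 0.18, edgeR adjusted p = 0.0089), where 25.3% of all genes were called, 18.5% as higher and 6.8% as lower. Library totals called 5 and TPM 8 of the 8 as lower there. Since hPSC libraries enter all 3 comparisons, the terms are not independent of each other.

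Within the nucleus, chromatin was set against nucleoplasm in the 3 cell types with repeats of both. Of the 8 genes, 7 were lower on chromatin in hPSCs, 8 in ectoderm and 8 in endoderm, where 30.6%, 44.4% and 53.7% of all genes were called with 17.2%, 18.6% and 22.9% as higher and 13.4%, 25.8% and 30.7% as lower. CCT8 fell by 1.07 in hPSCs (SE 0.20), by 1.23 in ectoderm (SE 0.09) and by 1.37 in endoderm (SE 0.15), with edgeR adjusted p of 0.0019, 5.3e-06 and 2.3e-06. In endoderm nucleoplasm it was at 142.5, 141.7 and 134.8 CPM and on chromatin at 85.01, 78.61 and 77.52 CPM, with no overlap. In hPSCs the third chromatin library, at 118.2 CPM, lay apart from 219 and 235.7 CPM.

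CCT4, the delta subunit, had the lowest value in endoderm, -1.40 (SE 0.13, edgeR adjusted p = 5.6e-07), from 171.9, 165.1 and 167.4 CPM in nucleoplasm to 94.27, 104.6 and 86.46 CPM on chromatin. CCT3 in hPSCs was the one gene not called (-0.18, SE 0.10, edgeR adjusted p = 0.17), at 362.3, 337.4 and 368.2 against 357.1, 391.3 and 358.7 CPM, and it was at 0.05 with library totals and at 0.40, called as higher, on TPM. The unit mattered for these counts, since on TPM 1 gene in hPSCs, 1 in ectoderm and 4 in endoderm were called as lower, and CCT2, CCT5 and CCT7 in hPSCs and CCT2, CCT3 and CCT6A in ectoderm had values above 0. With library totals 4, 8 and 5 genes were called as lower. The share of all calls that were higher went from 56.3%, 41.8% and 42.8% to 86.5%, 70.6% and 73.7% with library totals and to 96.8%, 96.4% and 75.8% on TPM. The median of the 8 minus the median of all genes was -0.58, -0.71 and -0.98 in the main test and -0.47, -0.54 and -0.81 on TPM.

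Chromatin against cytoplasm called all 8 genes as lower in each cell type, where 28.2% of genes were called as lower in hPSCs, 32% in ectoderm, 35.3% in endoderm and 32.5% in mesoderm. In the same order 35.3%, 29.4%, 37.7% and 33.7% were called as higher, and 63.5%, 61.3%, 73% and 66.3% in either direction. The median of the 8 was -1.02 in hPSCs, -1.51 in ectoderm, -1.93 in endoderm and -0.95 in mesoderm, beside medians over all genes of 0.09, 0.00, 0.05 and 0.01. On TPM the counts were 1, 5, 8 and 0, and CCT2 and CCT3 in hPSCs and CCT2, CCT3, CCT5, CCT6A and CCT7 in mesoderm had values above 0, with medians over all genes of 0.71, 0.73, 0.33 and 0.85. Against their own mean, CCT8 changed by -0.46, -0.50, -0.37 and -0.26 on chromatin, the lowest of the 8 in each cell type. CCT2, the beta subunit, gained 0.22, 0.31, 0.28 and 0.25. Neither gene's chromatin libraries overlapped with its cytoplasm libraries in any cell type, as was the case for 75%, 89%, 87.1% and 71.8% of all genes set against that mean (71.7%, 86.2%, 82.3% and 60% as higher, 3.27%, 2.81%, 4.84% and 11.8% as lower).

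The next comparison asked how the cytoplasmic level in each differentiated cell type compared with that in hPSCs, over 10678 genes tested of those in all 4 tables. In ectoderm all 8 genes were lower, where 76% of genes were called, 39% as higher and 37% as lower, and the sizes ranged from 0.41-fold of the hPSC level for CCT5 to 0.81-fold for CCT4. CCT5 was at 277.2, 257.6 and 268.5 CPM in ectoderm and at 630.3, 620.7 and 634 CPM in hPSCs, and its log2 difference was -1.29 (SE 0.09, edgeR adjusted p = 1e-08). The next lowest were TCP1 (-1.12), CCT7 (-1.11), CCT2 (-0.89), CCT3 (-0.85) and CCT6A (-0.70). CCT4 and CCT8 fell by 0.31 and 0.33, and for CCT8 the ectoderm values of 420.2, 356.5 and 394 CPM lay below 461.1 to 481.3 CPM in hPSCs without overlap. On TPM 6 of the 8 were called as lower, and the median of the 8 was -0.58 beside 0.18 for all genes.

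In mesoderm cytoplasm the 8 genes were lower in a narrower range, from CCT4 at -0.54 to CCT5 at -1.06 (SE 0.09 for both), all called, where 68% of genes were called, 34.9% as higher and 33% as lower. CCT5 was at 316.9, 305.8 and 312.7 CPM. CCT7 fell by 0.88 and was at 385.6, 357.6 and 367.3 CPM. The rest were TCP1 (-0.90), CCT2 (-0.84), CCT3 (-0.80), CCT6A (-0.75) and CCT8 (-0.66). On TPM 7 of the 8 were called as lower.

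Endoderm had the values nearest to 0. They ranged from -0.21 for CCT3, which was not called (SE 0.10, edgeR adjusted p = 0.078), to -0.48 for CCT5 (SE 0.09, edgeR adjusted p = 0.00048), and 7 of 8 genes were called as lower where 59.6% of genes were called, 27.4% as higher and 32.2% as lower. These calls rest on the scaling: with library totals only CCT5 was among the 8 called, with CCT3 at 0.01, and on TPM 0 of the 8 was called by limma, with CCT2, CCT3, CCT4, CCT6A and CCT8 between 0.03 and 0.12. The share of all calls that were higher went from 46.0% to 66.9% and 77.3%. In CPM, CCT3 was at 544, 527.3 and 589.2 in endoderm and 504, 565.1 and 579.6 in hPSCs, which overlap, and CCT5 at 492.8, 524.6 and 557.1 lay below all hPSC libraries. The gap between the medians of the 8 and of all genes was -0.23 in all 3 settings, and leaving out single libraries gave 3 to 8 calls. Pluripotency markers were also closer to the hPSC level in endoderm cytoplasm than in the other 2 lineages, and their part in these values was not tested.

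On chromatin all 8 genes were lower than in hPSCs in ectoderm and in endoderm, where 62.4% and 61.9% of genes were called, 32.3% and 31.1% as higher and 30.1% and 30.8% as lower. In endoderm the values ran from -0.79 for CCT6A to -1.32 for CCT4 (SE 0.23, edgeR adjusted p = 0.00025), and all 8 were called as lower with library totals and on TPM too. Endoderm thus differed from hPSCs by a median of -0.99 on chromatin where the median in the cytoplasm was -0.28; the difference between these fractions was not tested. In ectoderm CCT5 was lowest (-1.43, SE 0.23) and CCT8 was the least changed (-0.65, SE 0.26, edgeR adjusted p = 0.042), and with the replicate number as a block CCT8 was not called. CCT8 also lost its call without any 1 of 5 of the 6 libraries (edgeR adjusted p of 0.067 to 0.17), and CCT4 (-0.68) without either of 2, the second library of each cell type. On TPM 6 of the 8 were called as lower in ectoderm. Mesoderm had 5 lower calls, TCP1, CCT2, CCT3, CCT5 and CCT7, between -0.53 and -0.70, where 54.3% of genes were called, 28.5% as higher and 25.8% as lower. Its 3 chromatin libraries were far apart, with CCT3 at 203.2, 135.4 and 286.9 CPM, and the count of calls went from 1 to 7 when single libraries were left out and was 0 on TPM.

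**Figure D5:**
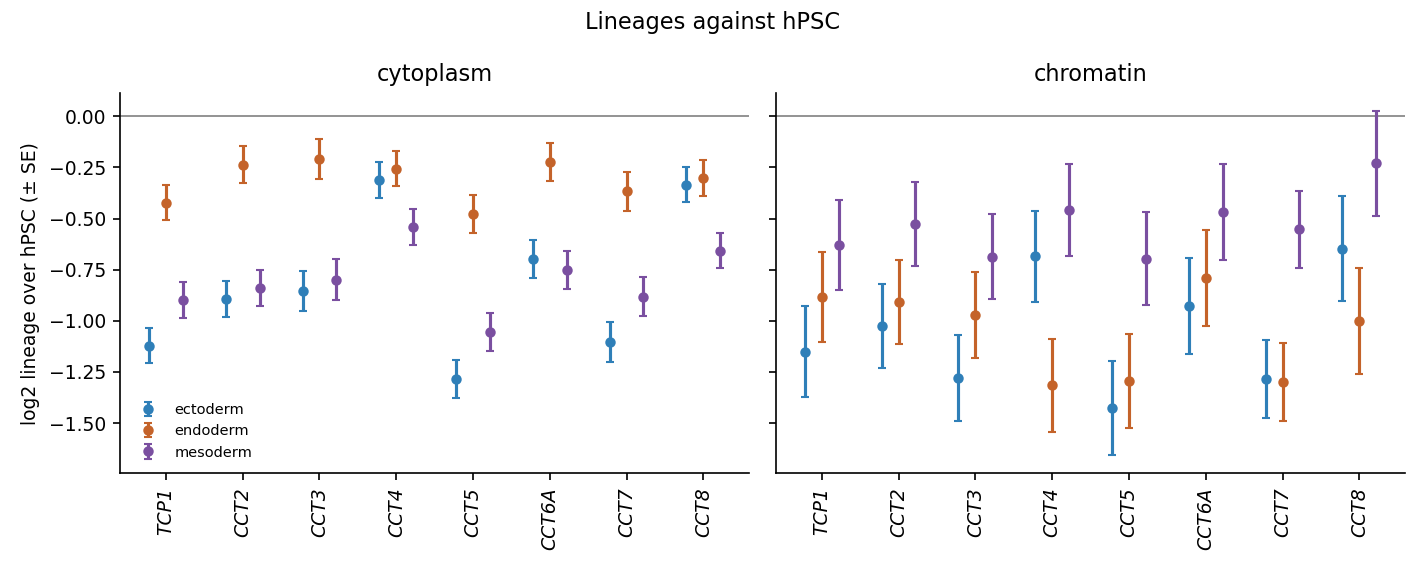
Log2 difference from hPSCs (edgeR estimate with SE) for each gene in ectoderm, endoderm and mesoderm, in the cytoplasm and on chromatin; the line at 0 is the hPSC level. In the cytoplasm endoderm lies between -0.21 and -0.48, and ectoderm runs from -0.31 for CCT4 to -1.29 for CCT5.

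Each gene was represented mainly by 1 isoform. The isoforms examined were those with at least 20% of their gene's counts as a mean in any group, and beyond the main form of each gene only CCT7-215 (ENST00000539919) and CCT3-204 (ENST00000368259) passed, both through the 1 mesoderm nucleoplasm library. CCT7-215 has 13 exons and 1497 coding bases, beside 12 exons and 1629 coding bases in the main form CCT7-201. Counts of single isoforms rest on how reads were divided among them by the authors and are less certain than gene sums.

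CCT7-215 took 14.2% ± 2.38 of CCT7 counts in hPSC nucleus and 16.6% ± 0.874 on hPSC chromatin, and 4.83% ± 0.662 in hPSC cytoplasm (SD, n = 3 each). The values were 16.98%, 12.97% and 12.75% in the nucleus and 4.11%, 4.97% and 5.42% in the cytoplasm, with no overlap. In ectoderm its share was 13.4% ± 2.36 in the nucleus and 6.51% ± 3.26 in the cytoplasm, again with no overlap (lowest 11.9%, highest 10.3%). In mesoderm the shares were 13.4% ± 2.55 and 8.54% ± 2.90, and 11.3% in the lowest nucleus library overlapped with 11.6% in the highest cytoplasm library. The form was not listed in the endoderm table.

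By test, CCT7-215 was lower in ectoderm cytoplasm than nucleus (-1.52, SE 0.40, edgeR adjusted p = 0.033), where 13.7% of isoforms were called. Its call was lost without any 1 of 4 of the 6 libraries, with values of -1.32 to -1.55 in those 4. In hPSCs it had -0.74 (SE 0.31, edgeR adjusted p = 0.082) while CCT7-201 rose by 0.98 (SE 0.07, edgeR adjusted p = 2.9e-06). Whether the 2 forms differ from each other in this change was not tested. Over all isoforms of the 8 genes, cytoplasm against nucleus called 8 of 11 tested in hPSCs, 3 of 13 in ectoderm, 7 of 10 in endoderm and 3 of 11 in mesoderm, all as higher except 1 lower call in ectoderm, where 39.7%, 13.7%, 42.1% and 32% of all isoforms were called. Chromatin against nucleoplasm called 7 of 11, 8 of 13 and 8 of 10 in hPSCs, ectoderm and endoderm, all as lower, where 9.75%, 13.9% and 29.9% were called.

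CCT3-204 leaves out 2 coding exons of the main form CCT3-201. They are chr1:156334868-156334918 (51 bases) and chr1:156334713-156334775 (63 bases) on the minus strand, in GENCODE v29 on GRCh38. Together they make 114 bases, or 38 codons, and keep the reading frame. The spliced lengths are 2150 bases for CCT3-201 and 1815 for CCT3-204, so the messages also differ outside these exons, which was not examined. The 2 exons are shown joined and in capitals, as the coding stretch that CCT3-204 lacks. On each side are 21 bases of the neighbouring exons in lower case.
CCT3-201: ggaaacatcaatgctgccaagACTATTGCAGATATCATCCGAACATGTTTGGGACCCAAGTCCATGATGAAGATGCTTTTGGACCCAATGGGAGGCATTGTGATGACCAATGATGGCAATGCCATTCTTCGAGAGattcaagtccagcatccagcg

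In the mesoderm nucleoplasm library, whose shares chose both forms, CCT3-204 took 29.7% of CCT3 counts and CCT7-215 took 31.5% of CCT7 counts, which is a description of that choice. That column is numbered 3 in the table while the sample is titled repeat 1, and with 1 library its values have no replicate check. In the 15 groups of 3 the mean share of CCT3-204 was 0.856% to 3.18%.

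The partners of CCT were taken from lists of related genes. Prefoldin, the co-chaperone that hands over unfolded actin and tubulin, has 6 subunits. All 6 were higher in the cytoplasm than in the nucleus in hPSCs, endoderm and mesoderm, and 2 of 6 in ectoderm. Of all genes 35.2%, 34.3%, 31.8% and 27.5% were called as higher in the same order, so the ectoderm count is near that share. VBP1, a prefoldin subunit, had the largest rise in hPSCs (1.79), ectoderm (1.69) and endoderm (2.98), and PFDN5 in mesoderm (2.62). Both measured phosducin-like co-chaperones, PDCL and PDCL3, were called as higher in all 4 cell types.

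Among 20 folding substrates, 16 were called as higher in hPSC cytoplasm and 0 as lower, and the counts were 1 and 9 in ectoderm, 5 and 1 in endoderm, and 10 and 1 in mesoderm. GNB1, a G protein beta subunit with WD40 repeats, rose by 1.06 in hPSCs, 1.37 in endoderm and 1.84 in mesoderm. TUBA1A, an alpha-tubulin, had the lowest value in ectoderm (-0.94). ACTB is both a substrate and 1 of the 4 cytoplasmic controls. Of the 5 tubulin folding cofactors, which assemble the tubulin dimer after CCT, 4 and 0 were called as higher and lower in hPSCs, 0 and 1 in ectoderm, 3 and 1 in endoderm, and 2 and 1 in mesoderm. Of the chaperonin-like genes MKKS, BBS10, BBS12 and CCT6B, 2 were called as higher and 0 as lower in each cell type, of 3, 3, 2 and 4 tested in hPSCs, ectoderm, endoderm and mesoderm. Of all genes, 35.2%, 27.5%, 34.3% and 31.8% were called as higher in hPSCs, ectoderm, endoderm and mesoderm. As lower these shares were 30.3%, 26.7%, 35.5% and 31.3%. Scaling moved some of these counts: on TPM the substrates gave 2 higher and 12 lower calls in mesoderm, 1 and 1 in ectoderm and 13 and 1 in endoderm, and prefoldin gave 5 higher calls in ectoderm and 4 in mesoderm. Without the second ectoderm nucleus library the ectoderm counts were 4 and 0 for prefoldin, 1 and 3 for the substrates and 2 and 0 for the cofactors.

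Against hPSC cytoplasm, the mitochondrial chaperonin genes HSPD1 and HSPE1 were both lower in the 3 lineages, and HSPE1, the co-chaperonin lid, had log2 values of -1.90 (ectoderm), -0.95 (endoderm) and -1.34 (mesoderm cells). The tubulin cofactors gave 0 higher and 4 lower calls of 5 in each lineage. Of all genes 39%, 27.4% and 34.9% were called as higher and 37%, 32.2% and 33% as lower in these 3 comparisons, which share the hPSC libraries. For the substrates the higher and lower calls were 5 and 11 in ectoderm, 6 and 4 in endoderm, and 5 and 12 in mesoderm. In ectoderm TUBA1A rose by 1.60 and CCNE1, which encodes cyclin E1, had -3.01. Prefoldin gave 1 higher and 2 lower calls in ectoderm, 0 and 3 in endoderm, and 1 and 3 in mesoderm, of 6 genes, counts too small to set apart from the shares of all genes. All these list counts are from the main test. In endoderm 46.0% of all calls were higher there, against 66.9% with library totals and 77.3% on TPM. The prefoldin subunit PFDN4, called as lower in endoderm (-0.81), was at 0.26 on TPM.

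Across the 16 group means the 8 genes were positively correlated with one another, as a description over groups that share libraries' depth and fraction. Genes outside the 8 reached values as high as theirs, as given below, so such correlation is not particular to them. The correlation of a gene with the mean of the other 7 was highest for CCT2 (Pearson r = 0.978) and lowest for CCT8 (0.876) and CCT6A (0.888). Among the 28 pairs it ran from 0.723 for CCT3 with CCT8 to 0.982 for CCT2 with CCT5. Of 9172 other genes compared, the 5 most like the mean of the 8 were PSMC1, a proteasome ATPase (0.983), LDHB, a lactate dehydrogenase subunit (0.979), UTP18 (0.978), COPS3, a subunit of the COP9 signalosome (0.976), and MDH1, the cytosolic malate dehydrogenase (0.975).

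Some reads could come from other genes. In GENCODE v29, TCP1 (chr6:159778498-159789749, minus strand) contains the small nucleolar RNA genes SNORA20 and SNORA29 and overlaps ACAT2 on the other strand by 558 bases. CCT3 (chr1:156308968-156367873, minus strand) overlaps TSACC on the other strand by 9682 bases, and CCT5 (chr5:10249921-10266412, plus strand) overlaps an antisense gene by 1816 bases. CCT6A (chr7:56051630-56063989, plus strand) contains SNORA22B and SNORA15, CCT4 (chr2:61868089-61888804, minus strand) overlaps an antisense gene by 17651 bases, and CCT8 (chr21:29055805-29073797, minus strand) holds a sense intronic gene. Whether counting used strand is not given in the sources used here. The pseudogene CCT6P3 reached 9.71 CPM as a mean on ectoderm chromatin, beside CCT6A at 123.1 to 131.6 CPM in the same libraries, and the group means of CCT8P1 and CCT4P2 reached at most 1.88 and 0.457 CPM.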

How the data were processed

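RNA of 46 libraries was analysed in 16 groups taken from the sample titles. Per the submitters' processing notes the tools include STAR and RSEM on hg38, with no versions or order given. The deposited tables hold whole-number counts per assembled transcript, which may be rounded estimates, and the authors' TPM, scaled per library. Columns coded "Nei" were read as nucleus, the 1 mesoderm nucleoplasm column is numbered 3 where its sample is titled repeat 1, and 1 per-sample column that matched no sample was not used. The combined assembly was used for ectoderm only. Counts were summed per gene; CPM are relative to the column total. The share of counts in rows with no Ensembl gene was 0.277% to 9.60%.

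Tests used edgeR 4.0.16 in R 4.3.3 (TMM, filterByExpr with a minimum count of 10, quasi-likelihood F test, two-sided, Benjamini-Hochberg over all features tested, called at adjusted p under 0.05). Fractions were tested within a cell type over all its libraries, and cell types over genes in all 4 tables, although each table rests on its own assembly. SEs were derived from the F statistic. Alternatives were library totals, DESeq2 1.42.0, no filter, limma 3.58.1 on log2(TPM + 1) with a pseudocount of 1, a replicate block, the combined assembly and leaving out each library. Values within the 8 genes and those of isoforms and listed partners under other settings were added after seeing the data. On simulated counts for hPSC cytoplasm against nucleus (13908 genes, 200 changed), 9.09%, 53% and 98.5% of 1.5-, 2- and 4-fold changes were called and 0.0365% of unchanged genes. For the ectoderm interaction (10678 genes) these shares were 8.96%, 32.8% and 95.5%, and for hPSC isoforms (27886) 0%, 6.15% and 28.8%.

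Of 17 comparisons checked for pairing by replicate number, 1 (hPSC cytoplasm against nucleus; correlations 0.269, 0.176 and 0.109) had every correlation over 0.1. The labels give no shared origin for equal numbers.

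The 8 genes and the lists were chosen with earlier results of these data known. The rule for naming was all 8 genes in each comparison and, of each list, up to the largest called rise and fall; where not all are printed singly, the rest are given by counts, range or median. Likeness was ranked among genes with at least 10 CPM on average. RefSeq and GENCODE v29 supplied sequences and annotation.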

Additional observations from a re-analysis of the deposited data

Results flagged for a closer look

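The change in cytoplasm against nucleus differed between cell types for 11 pairs of gene and lineage, by the interaction term of the edgeR quasi-likelihood test with Benjamini-Hochberg adjustment. In ectoderm against hPSCs the terms on the log2 scale were -1.03 for TCP1, -0.76 for CCT2, -1.07 for CCT3, -0.86 for CCT4, -0.80 for CCT5, -0.61 for CCT6A, -1.11 for CCT7 and -0.99 for CCT8. Without single libraries 7 or 8 of these were called, and CCT6A, the least of the 8, lost its call without any 1 of 5 of the 12 libraries, between -0.47 and -0.67 over all 12. In endoderm against hPSCs they were 0.66 for CCT6A and 0.63 for CCT8, and CCT6A lost its call without any 1 of 4 libraries. In mesoderm against hPSCs the term of CCT8 was -0.70. The hPSC libraries are shared by the 3 comparisons.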

How the results depend on the processing

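Of 160 values of the 8 genes over 20 comparisons, 155 kept their direction and their side of the threshold with DESeq2, 157 with no low-count filter, 124 with library totals and 65 on TPM, and on the combined assembly 21 of 24 did. Leaving out libraries kept 1038 of 1104. The number of genes called was 3 in ectoderm cytoplasm against nucleus with no filter, on the combined assembly (1 isoform), with library totals and on TPM, and DESeq2 called 3 genes in the mesoderm interaction and 6 isoforms in ectoderm cytoplasm against nucleus. Library totals called 5 genes in endoderm and 4 in hPSCs for chromatin against nucleoplasm (isoforms 4 and 3), 6 in endoderm and 5 in mesoderm for the interaction, 1 in endoderm against hPSC cytoplasm, and 1 isoform in mesoderm cytoplasm against nucleus. TPM called 5 genes in ectoderm, 1 in hPSCs and 0 in mesoderm for chromatin against cytoplasm, 1 in ectoderm, 4 in endoderm and 2 in hPSCs for chromatin against nucleoplasm (isoforms 1, 4 and 1), 4 in hPSCs and 5 in mesoderm (5 isoforms) for cytoplasm against nucleus, and 1, 6 and 8 for the interaction of ectoderm, endoderm and mesoderm. By limma on TPM 0 were called in endoderm cytoplasm and in mesoderm chromatin against hPSCs. The cause of these changes was not tested.

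Signs that turned on TPM were, for chromatin against cytoplasm, those of CCT3 (0.17) and CCT2 (0.056) in hPSCs and of CCT7 (0.13), CCT6A (0.23), CCT5 (0.15), CCT3 (0.27) and CCT2 (0.36) in mesoderm. For chromatin against nucleoplasm they were CCT6A (0.0060), CCT3 (0.063) and CCT2 (0.18) in ectoderm and CCT7 (0.16), CCT5 (0.11), CCT3 (0.40) and CCT2 (0.023) in hPSCs. For cytoplasm against nucleus they were CCT5 (0.16), CCT2 (0.037) and TBCD (0.039) in ectoderm and, in mesoderm, CCT4 (-0.81), TCP1 (-0.20), CCT7 (-0.88), CCT7-201 (-0.81), CCT6A (-0.54), CCT5 (-0.92), CCT8 (-0.36), CCT3 (-0.91) and CCT2 (-0.89). In the endoderm interaction CCT7 (0.24) and CCT3 (0.34) turned. Against hPSCs, CCT4 (0.066), CCT6A (0.098), CCT8 (0.025), CCT3 (0.12), CCT2 (0.089) and PFDN4 (0.26) turned in endoderm cytoplasm and CCT8 (0.036) on mesoderm chromatin. With library totals the sign turned for CCT3 on hPSC chromatin against nucleoplasm (0.052), for CCT5 (0.19), CCT2 (0.069), CCT7-201 (0.013) and TBCD (0.041) in ectoderm cytoplasm against nucleus, for CCT7 (0.17) and CCT3 (0.27) in the endoderm interaction, and for CCT3 in endoderm cytoplasm against hPSCs (0.010).

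Leaving out single libraries gave 2 to 6 genes (0 to 4 isoforms) in ectoderm cytoplasm against nucleus, 1 to 2 in the endoderm interaction, 3 to 8 in endoderm cytoplasm and 1 to 7 on mesoderm chromatin against hPSCs, 2 to 7 isoforms on hPSC chromatin against nucleoplasm and 1 to 3 in mesoderm cytoplasm against nucleus. The ectoderm count was 2 without cytoplasm library 1 or 3 and 3 without nucleus library 2. Ranges that crossed 0 were TCP1 (-0.00043 to 0.31) and CCT5 (-0.24 to 0.066) in ectoderm cytoplasm against nucleus, TCP1 in the endoderm interaction (-0.018 to 0.20) and CCT7-215 in mesoderm (-0.41 to 0.056).

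With the replicate number as a block, 155 of 160 values kept their call, 5 genes were called in ectoderm cytoplasm against nucleus, 7 on ectoderm chromatin, 5 in endoderm cytoplasm and 4 on mesoderm chromatin against hPSCs, and all 8 in hPSC cytoplasm against nucleus. The correlations behind the pairing ran from -0.56 to 0.49. In simulated counts at this depth, 53% of 2-fold changes were called for hPSC cytoplasm against nucleus, 32.8% for the ectoderm interaction and 6.15% for hPSC isoforms. Only 200 features were changed in each simulation, while 65.5% and 52.3% of genes were called in the first 2 real comparisons. These shares therefore cannot give the rate of missed calls in the real comparisons.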
